A study of Bos taurus with 14 samples.

Results

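A set of 9 genes of muscle energy supply and calcium handling was followed in liver and in blood neutrophils of Holstein cattle (Bos taurus) on day 7 and day 0 of a trial of β-cryptoxanthin, a carotenoid pigment and a source of vitamin A. The genes were CKM, MB, SLN, ATP2A1, PGAM2, ENO3, PYGM, CA3 and COX6A2. They were chosen by their liver changes between these days, so every liver value of theirs is a description and carries no test. All 9, of 6872 genes with a named probe, had 1 probe each among the 15011 distinct probes of the array, 8 by the gene name or the symbol in the probe's description. The SLN probe carries its symbol only in a note of similarity to the human gene.

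The groups were liver on day 7 and liver on day 0 of animals 58, 61 and 66, and neutrophils on day 7 and neutrophils on day 0 of animals 25, 26, 32 and 34. Per the labels, every animal, a heifer or a steer, received β-cryptoxanthin by mouth at 0.2 mg per kg body weight on day 0, and both days of 1 animal were sampled. No untreated animals were analysed here, so the day and the treatment cannot be told apart. The labels give neither the age of the animals nor how the liver was sampled.

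Skeletal muscle holds its own forms of many housekeeping enzymes. CKM (muscle creatine kinase) refills ATP from phosphocreatine, PYGM (muscle glycogen phosphorylase) releases glucose units from glycogen, and PGAM2 and ENO3 (muscle phosphoglycerate mutase and β-enolase) act late in glycolysis. MB (myoglobin) binds oxygen, COX6A2 is the heart and muscle form of a subunit of cytochrome c oxidase, ATP2A1 pumps calcium back into the sarcoplasmic reticulum of fast fibres, and SLN (sarcolipin) is a small membrane protein that inhibits such pumps. CA3 (carbonic anhydrase 3) is abundant in slow muscle and fat, and also in liver of some mammals such as the rat.

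The probes are 60 bases long, and the last 30 bases are shown for the 5 members with the largest liver changes and for ENO3, which changed most evenly over the animals, so that the transcript each value refers to can be seen. Capitals mark AATAAA or ATTAAA, the hexamers known as the usual polyadenylation signals, searched on the probe's own strand.
CKM: aaagcaacaAATAAAagcaatggtggcctt
MB: tggtgtctgcaacataaatgtcccttctca
SLN: atcaacctgccagaagaaagaaatgttaaa
ATP2A1: agctgagctgcttatttattgaaAATAAAt
PGAM2: ggtgggtgctgccAATAAAggcacctcctt
ENO3: aagcccttccccctgaAATAAAacactggt
A hexamer lay in the full probe of 6 of the 9 members, and in 15% of all 15011 probes. No genome build is given in the sources used here, so no coordinates are reported.

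Each level below is the probe's processed signal as a percentage of its array's 75th percentile. A probe counts as detected where the scanner software flagged it well above background. Levels of different probes are not compared.

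In liver 5 of the members were detected on every day 0 array, namely CA3, ENO3, PYGM, ATP2A1 and COX6A2. Of these, CA3 was bright already on day 0, at 997% to 1360% of the array's 75th percentile, and ENO3 and PYGM stood at 27.5% to 41.7% and 9.32% to 13.6%, while ATP2A1 and COX6A2 were detected but dim, at 1.77% to 1.95% and 1.02% to 1.07%. PGAM2 was detected on 2 of 3 day 0 arrays. CKM, MB and SLN were detected on all 3 liver arrays of day 7 and on none of day 0, a pattern held by 0.128% of the 10935 probes tested in liver. All 9 genes were higher on day 7 in each of the 3 animals (17.8% of all tested probes were), and for 8 of 9 every day 7 array lay above every day 0 array (7.35% of all tested probes). These counts follow from how the genes were chosen, and nothing is read from them. In bulk tissue, more cells of a type and more RNA per cell cannot be told apart.

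**Figure D1:**
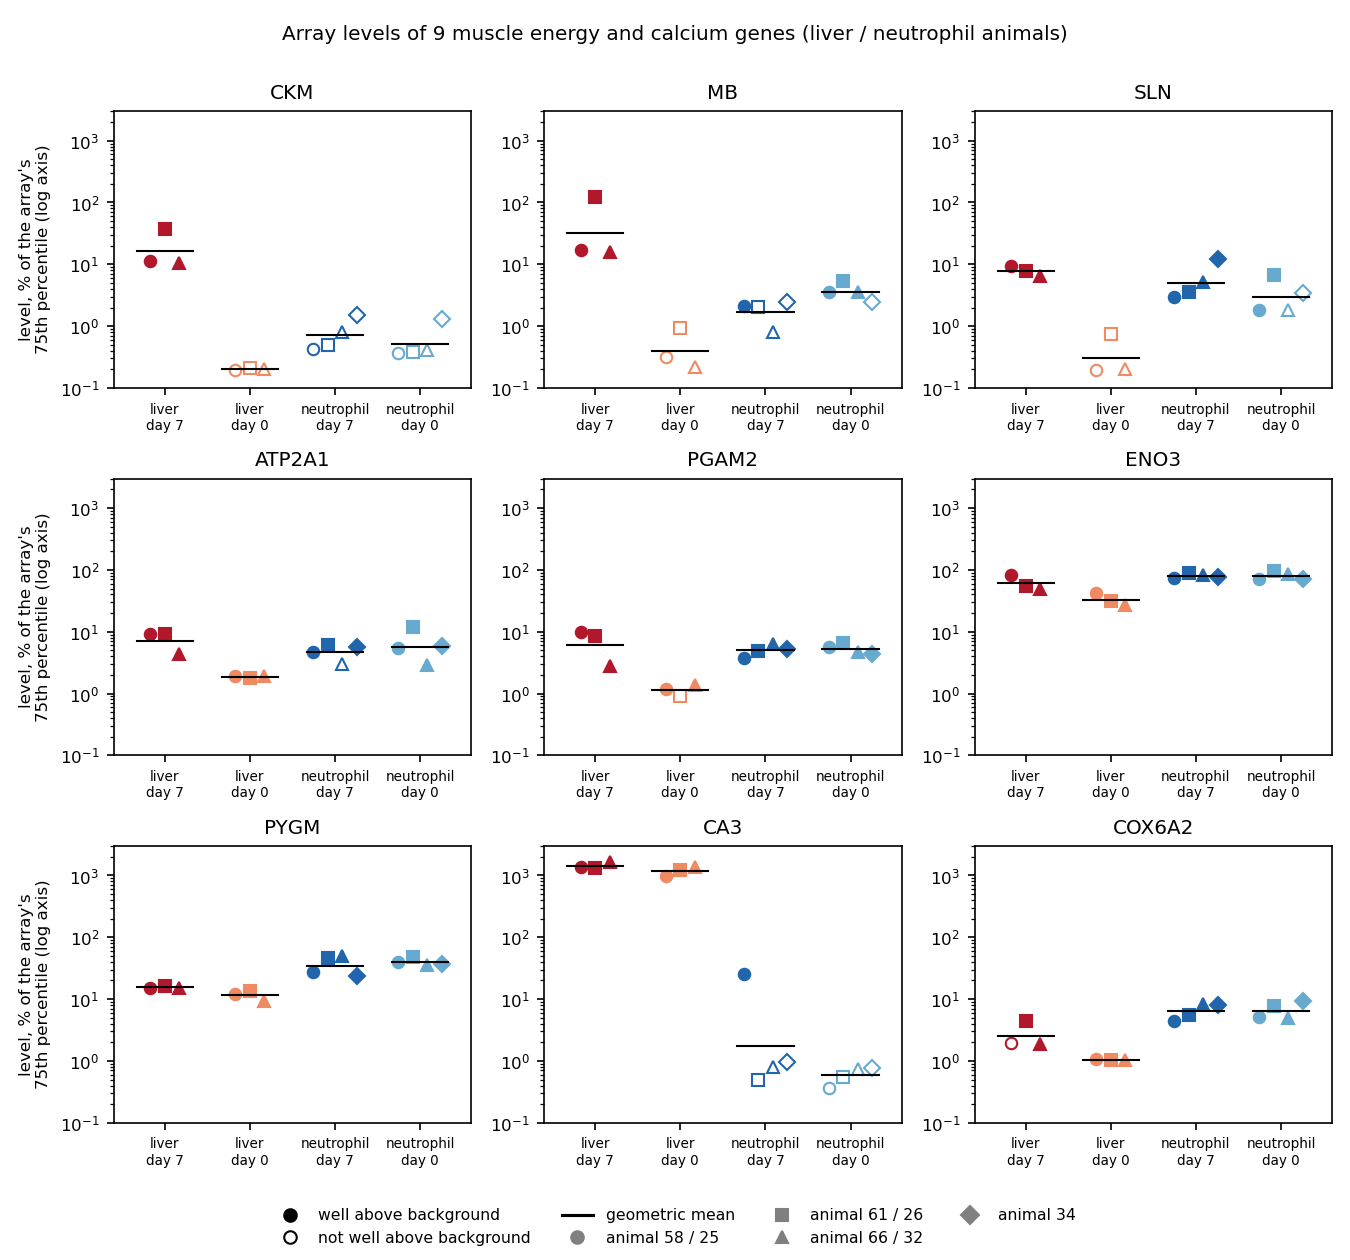
Levels of the 9 genes on each array, as a percentage of the array's 75th percentile on a log axis, in liver and neutrophils on day 7 and day 0. Points are arrays, filled where well above background, shapes are animals and bars are geometric means; CKM, MB and SLN have filled liver points on day 7 and open ones on day 0, and CA3 lies between 997% and 1650% in liver over both days.

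The genes of the phosphagen and oxygen stores showed the widest gap. CKM had levels of 11.5%, 36.6% and 10.6% on day 7 in animals 58, 61 and 66, against 0.193%, 0.21% and 0.202% on day 0. Animal 61 was the high one on day 7, and the day 0 values, all at the floor of the software, did not overlap with those of day 7. The CKM change averaged 6.35 ± 0.95 on the log2 scale (SD, n = 3 animals). No day 0 array detected CKM, so only a bound can be given: it was at least 16.6-fold higher on day 7, against the lowest detected signal of each day 0 array.

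MB had levels of 16.8%, 123% and 16% on day 7 in animals 58, 61 and 66, against 0.314%, 0.943% and 0.217% on day 0. Animal 61 was again the high one, on both days. The mean log2 change of MB was 6.33 ± 0.65 (SD, n = 3 animals), or at least 32.4-fold higher on day 7 by the same bound.

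Of the calcium genes, SLN had levels of 9.42%, 7.66% and 6.49% on day 7 in animals 58, 61 and 66, against 0.193%, 0.746% and 0.202% on day 0. Its day 7 values were close together, and its log2 change, 4.66 ± 1.17 (SD, n = 3 animals), was smallest in animal 61, where the undetected day 0 signal was highest. The day 0 values of animals 58 and 66 were at the floor of the software, so the SD mixes floor values with a measured one. By the bound SLN was at least 7.85-fold higher on day 7. ATP2A1, the pump that SLN inhibits, was detected on both days, with 9.18%, 9.07% and 4.33% on day 7 in animals 58, 61 and 66 and 1.95%, 1.77% and 1.89% on day 0. Its 3 day 0 values lay within a narrow range below all day 7 values, and the log2 change was 1.93 ± 0.63 (SD, n = 3 animals).

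Of the glycolytic genes, PGAM2 had levels of 9.93%, 8.39% and 2.82% on day 7 in animals 58, 61 and 66, against 1.18%, 0.905% and 1.35% on day 0. Animal 66 was the low one on day 7, and the log2 change was 2.45 ± 1.20 (SD, n = 3 animals). ENO3 had 83.0%, 54.2% and 49.1% on day 7 against 41.7%, 31.7% and 27.5% on day 0, in the same order of animals. The animals kept the same order on both days, and ENO3 had the narrowest spread of change, 0.87 ± 0.11 on the log2 scale (SD, n = 3 animals). PYGM had 15.2%, 16.2% and 15.2% on day 7, against 12.2%, 13.6% and 9.32% on day 0. Its groups did not overlap, yet the log2 change of 0.43 ± 0.25 (SD, n = 3 animals) was small beside those of the members above.

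CA3 was nearly as bright on day 0 as on day 7. Its levels were 1350%, 1320% and 1650% on day 7 in animals 58, 61 and 66, against 997%, 1210% and 1360% on day 0. The groups overlapped, because the day 0 level of animal 66 lay above the day 7 levels of animals 58 and 61, and the log2 change was 0.28 ± 0.16 (SD, n = 3 animals). COX6A2 had 1.92%, 4.41% and 1.86% on day 7, against 1.07%, 1.04% and 1.02% on day 0. Here animal 61 was the high one on day 7, and all day 7 values lay above those of day 0, with a log2 change of 1.27 ± 0.71 (SD, n = 3 animals) and of 0.85 and 0.87 in animals 58 and 66. On the day 7 array of animal 58, COX6A2 was not flagged well above background. The lowest detected signal there was 38.7, against 14 and 15.5 on the other day 7 liver arrays. The COX6A2 signals were 17.8, 54.1 and 20.5 on day 7 in animals 58, 61 and 66, against 14.4, 13.8 and 12.9 on day 0. The lowest detected signals of the day 0 arrays were 12.8, 13.7 and 12.6. The day 0 values, and those of day 7 in animals 58 and 66, thus lay near or below the detection limit.

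The median log2 change of the 9 genes was 1.93, beside -0.04 for all 10935 tested probes, and 6 of 9 changed by 1 or more (2.59% of all tested probes did). By animal the members' median was 2.23, 2.35 and 1.06 in animals 58, 61 and 66. The largest change of a gene fell in animal 61 for 5 of 9. SLN, ENO3 and CA3 changed most in animal 58, and PYGM in animal 66. Background correction by normexp, followed by quantile normalization, adds a constant to every signal, which shrinks the log2 changes of dim probes most. In this setting the log2 changes of CKM, MB and SLN were 1.82, 2.38 and 0.98, and those of ATP2A1 and PGAM2 0.58 and 0.68. That of COX6A2 was 0.23 and the members' median 0.68, all above 0.

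**Figure D2:**
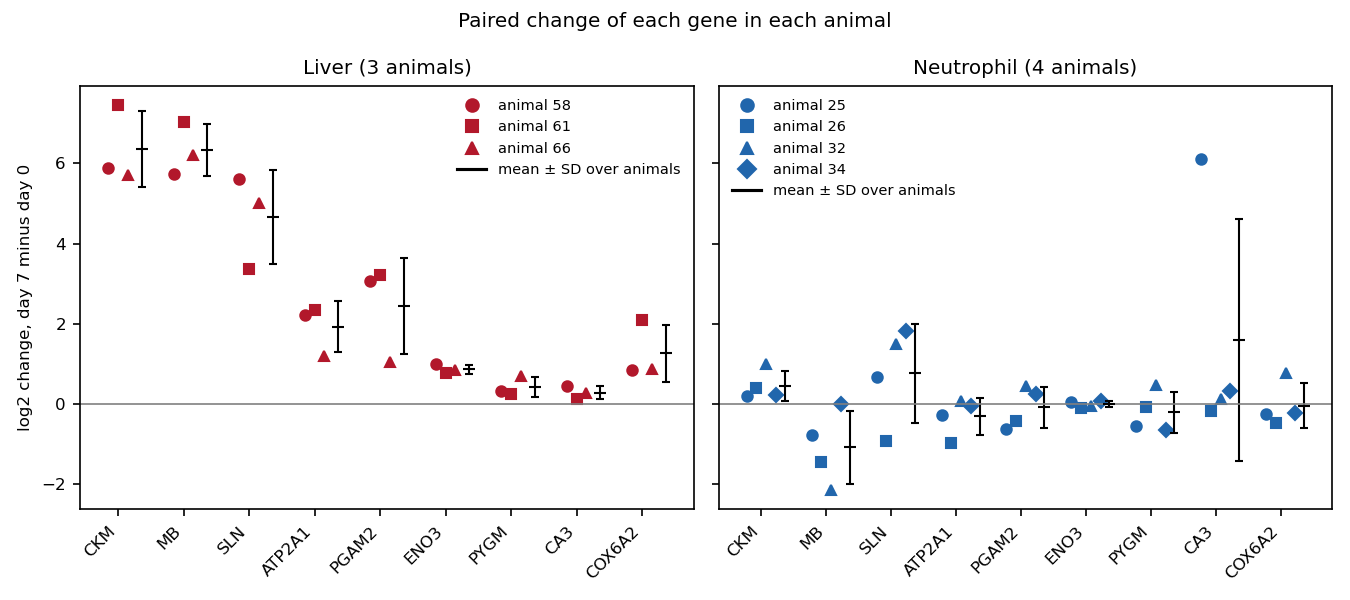
Log2 change, day 7 minus day 0, of each gene in each animal, in liver (left) and neutrophils (right). Points are animals and bars give the mean ± SD; all liver points lie above 0, and the neutrophil points lie on both sides for all genes but CKM, whose probe no neutrophil array detected.

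The choice of genes did not use the neutrophil arrays. Of the 9 genes, 6 could be tested there, and limma called 0 of 6 at an adjusted p under 0.05, with 0 of 6 under 0.05 before adjustment. SLN passed the filter through day 7 alone and ATP2A1 through day 0 alone, so their part of this count is given without weight. Over all 9450 probes tested in neutrophils 0% were called, and 13.4% had an unadjusted p under 0.05. The day 7 array of animal 34 had the lowest share of spots well above background of all arrays, 57.1%. A missed threshold does not show that a gene kept its level. The median log2 change of the 6 genes was -0.06, beside -0.07 for all tested probes. The difference in change between the tissues was not tested.

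SLN had levels of 2.91%, 3.55%, 5.10% and 12.1% on day 7 in animals 25, 26, 32 and 34, against 1.81%, 6.73%, 1.82% and 3.40% on day 0. The groups overlapped, and the log2 change of SLN was 0.77 ± 0.46 (SE, n = 4 animals). SLN was detected on 4 of 4 arrays of day 7 and 2 of 4 of day 0, so its p from that fit is left out. With no filter on dim probes it was 0.377 (limma adjusted p). ATP2A1 was detected on 3 of 4 arrays of day 7 and 4 of 4 of day 0. Its change was -0.30 ± 0.27, and with no filter on dim probes its p was 0.581 (limma adjusted p). For PGAM2 the change was -0.08 ± 0.28 (limma adjusted p = 0.904). ENO3 kept within a narrow range, 74.8% to 90.0% on day 7, against 72.1% to 95.7% on day 0, with a change of -0.00 ± 0.23 (limma adjusted p = 0.998). PYGM changed by -0.20 ± 0.28 (limma adjusted p = 0.757) and COX6A2 by -0.04 ± 0.29 (limma adjusted p = 0.955), both without separation of the days.

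The other members were too dim in neutrophils to be tested. CKM was detected on 0 of 8 neutrophil arrays, and MB on 1 of 4 arrays of day 7 and 3 of 4 of day 0. The MB levels were 2.13%, 2.01%, 0.802% and 2.48% on day 7 in animals 25, 26, 32 and 34, against 3.63%, 5.41%, 3.51% and 2.46% on day 0. MB was lower on day 7 in 3 of 4 animals, and the ranges of the days met at the values of animal 34. CA3 was detected on 1 of 8 neutrophil arrays, with 25.2% on day 7 in animal 25, while its other 7 levels lay at 0.497% to 0.955% on day 7, against 0.365% to 0.767% on day 0.

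The tissues were set side by side for the probes detected on every array of at least 1 of them on the day in question. On day 0 these were 6 of the 9 genes, since CKM was detected in neither tissue and MB and SLN on no liver array. Every liver array lay below every neutrophil array for 5 of the 6, namely ATP2A1, PGAM2, ENO3, PYGM and COX6A2 (43.3% of all such probes), and above for CA3 (39.2%). CA3 was undetected on all day 0 neutrophil arrays, so its liver level was at least 526-fold that in neutrophils. On day 7 all 9 genes qualified, and every liver array lay above every neutrophil array for CKM, MB and CA3 (35.8% of all such probes) and below for PYGM (36.1%), with overlapping ranges for the other 5. CKM, MB and CA3 qualified on day 7 through the liver arrays alone. On day 0 CA3 qualified through the liver arrays alone and PGAM2 through the neutrophil arrays alone. The choice of genes used the liver values of both days. Nothing is read from the place of any member above or below neutrophils, or from these counts beside the shares of all probes. Liver and neutrophil RNA came from different animals and were hybridised on different slides, so tissue, animal and slide cannot be told apart in these differences.

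The counterpart isoforms, which carry out the same or a like step and mostly act outside fast muscle, did not pass the liver test. Of 24 listed counterparts 12 had a named probe and 10 could be tested, and limma called 0 higher and 0 lower (over all probes 2.67% were called higher and 1.31% lower), with a median log2 change of -0.02. A p that misses the threshold does not show that a gene stayed the same. The brain-type creatine kinase CKB, the partner of CKM in other tissues, changed by 0.01 ± 0.12 in liver (SE, limma adjusted p = 0.982). Its mitochondrial relatives CKMT1A and CKMT2 changed by -0.30 ± 0.30 (limma adjusted p = 0.682) and 0.26 ± 0.22 (limma adjusted p = 0.623). CKMT2 is itself a form of heart and skeletal muscle, so it does not stand for tissues outside muscle. PGAM1, the form of phosphoglycerate mutase found in most tissues, changed by 0.01 ± 0.11 (limma adjusted p = 0.984).

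The widespread enolase ENO1 changed by 0.04 ± 0.16 (limma adjusted p = 0.926) and the brain-type glycogen phosphorylase PYGB by -0.04 ± 0.17 (limma adjusted p = 0.927). Phospholamban, PLN, the cardiac relative of SLN, changed by -0.39 ± 0.22 (limma adjusted p = 0.451), and the carbonic anhydrases CA2 and CA4 by -0.45 ± 0.29 (limma adjusted p = 0.517) and -0.72 ± 0.54 (limma adjusted p = 0.571). COX6A1, the form of the COX6A subunit outside heart and muscle, had the highest value among the counterparts, 0.62 ± 0.16 (limma adjusted p = 0.15), from a probe in spot row 10, and 0.25 from its other probe, in row 58; the first became -0.02 once a trend along the spot rows was removed. The globin NGB and the mitochondrial carbonic anhydrase CA5B were detected on 0 of 3 day 7 and 2 of 3 day 0 liver arrays and were not tested. Related pumps such as ATP2A2 had no probe that could be named here.

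**Figure D3:**
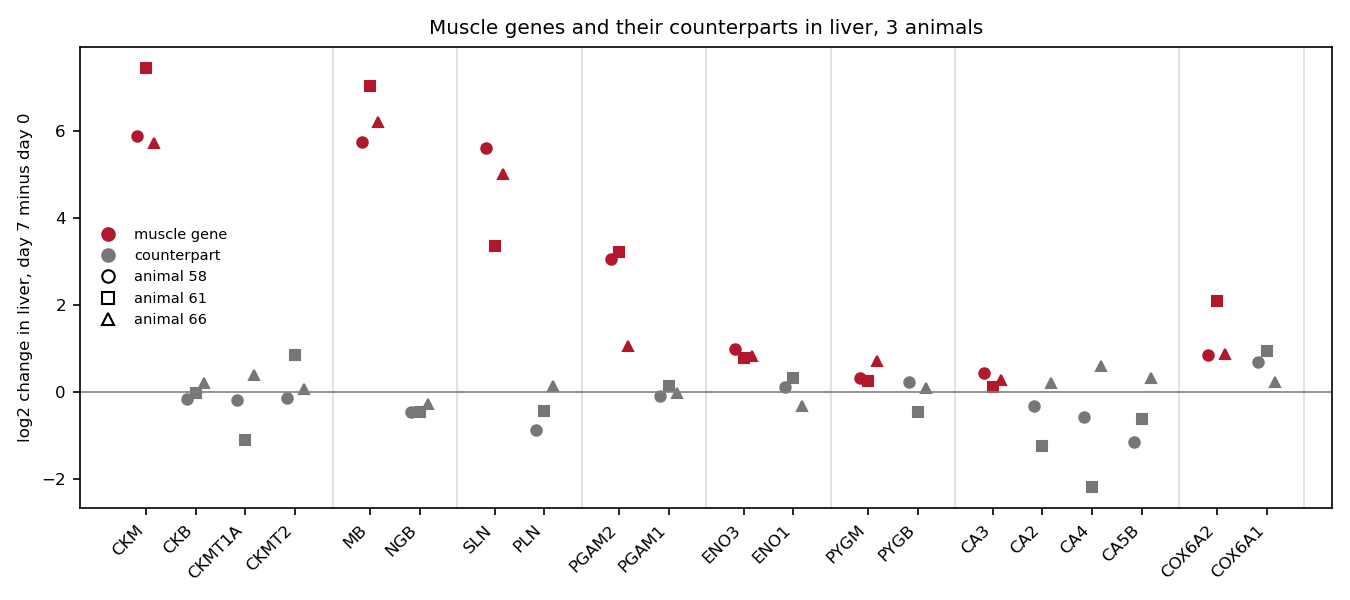
Log2 change in liver, day 7 minus day 0, of the muscle genes (red) beside their counterparts with a named probe (grey), 1 point per animal. Among the grey ones CKMT2 is itself a muscle form. The red points of CKM, MB, SLN and PGAM2 all lie above 1, while the grey points lie on both sides of 0 except those of NGB (below) and COX6A1 (above).

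Few genes of the wider pathways passed the test. In glycogen breakdown and glycolysis, 1 of 18 tested genes was called higher in liver and 0 lower, with a median log2 change of 0.01. The 1 call, GAPDH, whose probe lies in spot row 1 of the array, changed by 1.13 ± 0.11 (SE, limma adjusted p = 0.0174), and by -0.46 once a trend along the spot rows was removed. In the same list PFKM, the muscle phosphofructokinase, changed by 0.14 ± 0.10 (limma adjusted p = 0.572). Phosphagen and adenylate genes had 0 of 10 calls and a median of -0.01, and muscle-type mitochondrial and fuel genes 0 of 6 and -0.11.

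COX7A1, another muscle-type subunit of cytochrome c oxidase, changed by 0.01 ± 0.12 (SE, limma adjusted p = 0.973). Calcium handling of the sarcoplasmic reticulum had 0 of 5 calls and a median of 0.02. General endoplasmic reticulum calcium genes had 0 of 8 called higher and 1 of 8 lower. The lower one was CANX, the chaperone calnexin, with -2.16 ± 0.16 (SE, limma adjusted p = 0.0118) from a probe in spot row 191, and it lost its call, at -1.36, once the row trend was removed.

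Of 19 contractile genes of skeletal muscle with a probe, 15 could be tested in liver. Of the 15, 8 were called higher on day 7 and 0 lower, while 7 were not called (over all tested probes 2.67% were called higher and 1.31% lower). Of the 8 called, 6 were not detected on every day 0 array and passed the filter through day 7, where they had to be higher, so this count is given without weight. Among probes detected on every liver array 3 contractile genes were called higher, MYH7, TPM1 and ACTN3, beside 356 of all 9275 such probes. MYOZ1, TCAP, LDB3 and DES were also detected on every liver array and were not called. With no filter on dim probes 0 contractile genes were called, and 0 of all 15011 probes. TNNC2 (fast troponin C) and MYL1 (a fast myosin light chain) were detected on all day 7 and no day 0 liver arrays. By the bound they were at least 50-fold and at least 62.4-fold higher. They passed the filter through day 7 alone, so their p from that fit is left out. With no filter on dim probes it was 0.102 for each (limma adjusted p). ACTA1, skeletal actin, was detected on 3 of 3 day 7 and 2 of 3 day 0 liver arrays, and its measured log2 levels, relative to the 75th percentile, averaged 1.64 on day 7, against -6.21 on day 0. TNNC1, slow and cardiac troponin C, was detected on 3 of 3 and 1 of 3 arrays, with means of 0.38 on day 7, against -6.66 on day 0. TNNT3, MYH1, MYH7 and TPM1 were called as well, and TPM2 and TCAP, at -0.01 and -0.10, were not. With the row trend removed, ACTA1, MYL1, TNNC1, TNNC2 and TNNT3 were the 5 list genes of any kind still called, and without animal 58 none was. All 5 are among the 6 that passed the filter through day 7, so these calls are given without weight too.

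The summed level of the 19 contractile genes with a probe was 6.75, 20.6 and 6.12 times the array's 75th percentile on day 7 in animals 58, 61 and 66, against 1.33, 1.74 and 1.02 on day 0. Animal 61 was the high one on day 7, as it was for CKM and MB. Of these 19 genes 14 were detected on every day 7 and 8 on every day 0 liver array, and TTN was detected on none of either day. The list was chosen with earlier results of these data known, and its part in the changes of the 9 genes was not tested.

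Other cell types were read the same way in liver. Of 4 tested muscle regulators 1 was called higher, MYOD1 with 2.42 ± 0.37 (SE, limma adjusted p = 0.044), from a probe in spot row 3, and this call was lost, at 1.09, once the row trend was removed. MYOG, which acts later in muscle formation, changed by -0.06 ± 0.19 (limma adjusted p = 0.91). Heart genes had 0 of 1 calls, and TNNT2, NPPA and RYR2 were detected on no liver array, with a summed level of the heart list between 0.0438 and 0.0608 on day 7, against 0.0447 and 0.0507 on day 0.

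Smooth muscle genes had 0 of 4 calls, and their sums ranged between 14.9 and 20.3 on day 7, against 11.9 and 21.7 on day 0. Adipocyte genes had 0 of 2 calls, with ADIPOQ and LEP undetected in liver. The tested adipocyte genes were FABP4 (fatty acid binding protein 4), at a log2 change of 1.1 and of 2.90 in animal 66, and CIDEC (a lipid droplet protein), at 0.59, and the list had sums between 0.178 and 0.733 on day 7, against 0.204 and 0.56 on day 0. Red cell genes had 0 of 3 calls, with sums between 1.04 and 1.25 on day 7, against 0.91 and 1.12 on day 0. Neutrophil genes had 0 of 9 calls, with sums between 4.03 and 4.53 on day 7, against 4.88 and 11.7 on day 0.

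The liver label held on both days. All 15 hepatocyte genes with a probe were detected on every liver array, with sums between 1280 and 1620 on day 7, against 971 and 1120 on day 0; the sums in neutrophils lay between 2.01 and 6.08 on day 7, against 2.32 and 3.98 on day 0. Of the 15, 3 were called higher on day 7 in liver, namely FGB, RBP4 and AMBP, whose probes lie in spot rows 19, 25 and 7, and none of these calls held with the row trend removed.

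Position on the array also moved with the day. On the slide that holds all liver arrays, day 0 arrays form the first row of arrays and day 7 arrays the second, so day and place on the slide cannot be told apart. Within an array, the median log2 change in liver was 0.42 in spot rows 1 to 20, -0.04 in rows 41 to 152 and -0.30 in rows 173 to 192. Of the 9 members, 0 lay in rows 1 to 20 and 4 in rows 173 to 192, namely CKM, MB, ATP2A1 and PGAM2. The part of position in the members' changes was not tested. With the row trend removed the changes of CKM, MB, ATP2A1 and PGAM2 were 6.42, 7.21, 2.64 and 2.55, and those of ENO3 and COX6A2 0.68 and 1.28. In neutrophils the median of the same row ranges lay between -0.08 and -0.06.

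**Figure D4:**
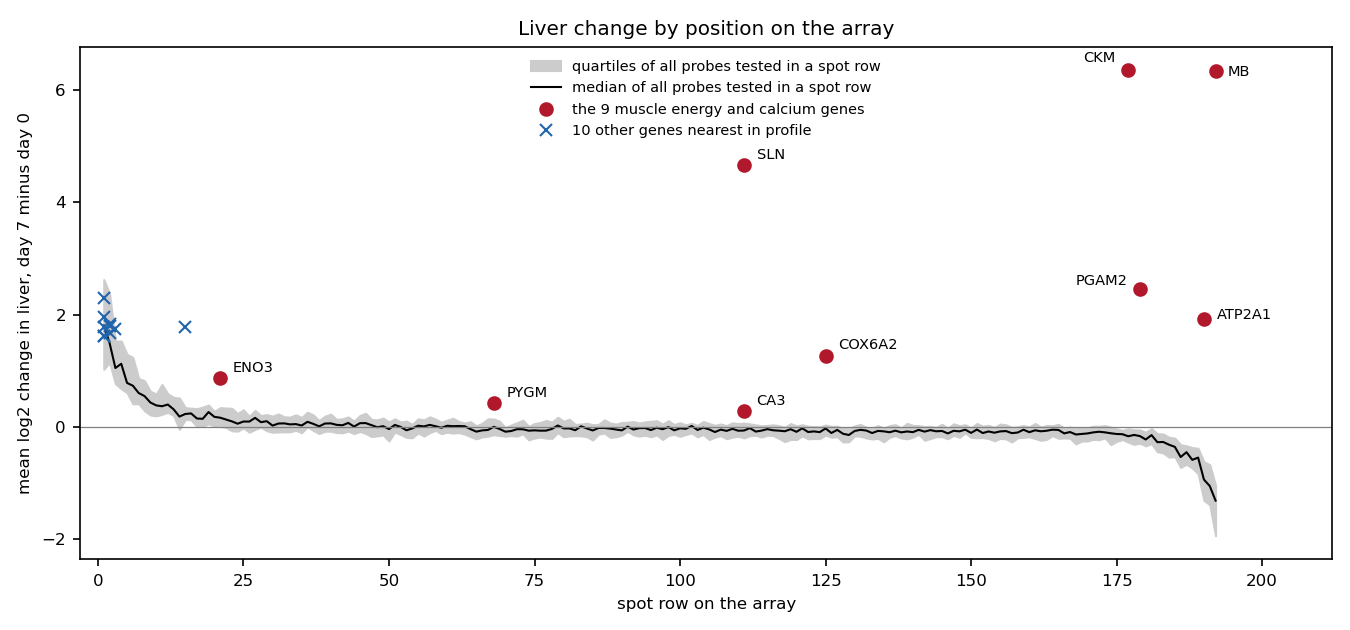
Mean log2 change in liver, day 7 minus day 0, against the spot row of the probe. The line and band are the median and quartiles of all probes tested in each row, red points the 9 members and blue crosses the 10 other genes nearest in profile; the band bends up at the lowest rows and down at the highest, where CKM, MB, ATP2A1 and PGAM2 lie far above it.

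The 10 other genes with the liver profile nearest to the members' median profile, by root mean square distance over the 6 liver arrays after centring, were AQP2, RPS19, MXD4, SLC35B2, GHITM, DIAPH2, YJU2B, TOP2B, UPK1A and ITGB5. Their distances were 0.22 to 0.38 on the log2 scale, and the members' own ran between 0.05 for ATP2A1 and 2.41 for MB. All 10 probes lie in spot rows 1 to 15. Their log2 changes of 1.62 to 2.29 became 0.03 to 1.44 once the row trend was removed, where none of the 10 was called. None is in the muscle or pathway lists.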

How the data were processed

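RNA of 6 liver and 8 neutrophil samples was measured on 14 one-colour (Cy3) bovine arrays, liver on 1 slide and neutrophils on another. The intensity used is the authors' deposited processed signal of Agilent Feature Extraction (9.5.1.1 by the deposited file headers, 9.5 by the submitters' processing notes), which had subtracted background and set surrogates for low values. The deposited log2 value table of the authors equals log2 of this intensity minus about the array's 75th percentile (offset 0.0069 to 0.013, correlation 1.0, column medians -3.55 to -2.69). Flags and grid positions are other deposited columns.

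Each processed signal was divided by the 75th percentile of its array and put on the log2 scale, with control and outlier spots left out and spots of 1 sequence averaged. Of 15011 probes 7084 had 1 gene symbol, 12 several and 7915 none, named from the files and, for names alone, a RefSeq table of genes (assembly ARS-UCD2.0), which is not stated to be the files' build. The SLN probe was found in a text field that the rule for members does not name, and was added after the files were seen. The number of arrays limits the precision.

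Tested were probes well above background on all arrays of 1 day or both, with limma 3.58.1 in R 4.3.3 (lmFit, eBayes) within each tissue, two-sided, with Benjamini-Hochberg adjustment over all tested probes, a threshold of 0.05 and the animal as a block. The labels pair the arrays, since each animal is named on both days. The deviations of paired arrays correlated at 0.66, 0.36 and 0.68 (liver: 58, 61, 66) and at 0.63, 0.36, -0.02 and 0.25 (neutrophils: 25, 26, 32, 34). The fit was tested on simulated data. A probe detected on no array of 1 day has only a bound, the brighter day's mean over that of the dim day, with a dim array taken at its lowest signal well above background, or at the probe's signal where that is higher.

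The members and gene lists were chosen with earlier results of these data known. Planned for naming were all members, all counterparts with a probe and the 10 genes nearest in profile. From each other list up to 4 genes with the largest liver change were planned. Not all of these are named above, among them LTF and ACTA2, at -2.11 and -0.90 in liver, neither of them called. A gene with several probes is read from the brightest in liver. PFKM, COX7A1, MYOG, TPM2, TCAP, ACTN3, MYOZ1, LDB3 and DES and the undetected markers were named after their values were seen. Alternatives were no block, normexp (offset 50) with quantile normalization, quantile normalization, the authors' values, other filters, a loess trend (span 0.2) along spot rows removed, 1 fit over all arrays, each animal left out and the mean over probes.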

Additional observations from a re-analysis of the deposited data

Results flagged for a closer look

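The 18 sets of 4 neutrophil arrays (9 genes, each on day 7 and day 0) were searched for a value far from the other 3. Dixon's critical value was used, for the share of the range that lies in the gap to the nearest value. For measured values chance gives about 1 in 20 sets. In both sets described here the other 3 values were surrogates set by the software for low signals, so that rate does not hold for them. CA3 on day 7 in animal 25 stood apart, at a log2 level of -1.99 against the array's 75th percentile, with a gap of 0.834 of the range, and it was well above background. On that array the summed level of the 15 hepatocyte genes was 2.01 times the array's 75th percentile, the lowest of the 4 day 7 arrays (up to 6.08). Of these genes APOA2, PCK1, APOA1 and APOC3 were well above background there, at log2 levels of 0.31, -1.0, -3.18 and -3.54. The others were not, among them ALB, TTR, AHSG and SERPINA1 at -7.90 each, and the part of other cells in the CA3 value was not tested.

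CKM on day 0 in animal 34 stood apart at a log2 level of -6.29, with a gap of 0.907 of the range, and was not well above background there or on any other neutrophil array. The lowest detected signal of that array was 41.8, the highest such value among the day 0 neutrophil arrays.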

How the results depend on the processing

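The 9 members' liver changes stayed above 0 in all 63 values recomputed under 7 alternatives, and 53 of these moved by less than the SD over animals. The genes were chosen by these changes, and each rose in all 3 animals, so leaving 1 animal out could not turn a sign. The authors' values are nearly the same numbers as those used. The signs are therefore no evidence of stability. Their median was 0.68 with normexp and quantile normalization, and 1.72 to 2.29 with 1 animal left out. The count of members with every day 7 array above every day 0 array was 8 in every alternative but 1, and 9 without animal 66 (range 8 to 9). The calls in liver were less stable. Against 435 calls in liver with the animal as a block there were 210 without it, 0 with no filter on dim probes (1855 at an unadjusted p under 0.05), 30 with the row trend removed, 177 with 1 fit over all arrays, and 0 to 203 with 1 animal left out, 0 of them without animal 58. Of the list genes 14 were called, against 0 with no filter, 5 with the row trend removed, 8 with 1 fit over all arrays and 0 to 10 with 1 animal left out (0 without animal 58, 7 without animal 61). GAPDH turned to -0.46 with the row trend removed. The causes were not tested. In neutrophils 0 probes were called in each setting but 1 fit over all arrays, which called 24, none of them a member; leaving out any animal gave 0. Each member has 1 probe, so the mean over probes leaves its liver values as they are. Signal over background limits CKM, MB and SLN on day 0 in liver, where only a bound on the change can be given.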
